A study of Ovis aries with 3 samples.

Results

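The imprinted DLK1-DIO3 miRNA cluster was described in sheep left ventricular tissue. Its members were every entry of the deposited count tables of known sheep miRNAs and of human, mouse and rat miRNAs that starts between 64.3 and 64.6 Mb on sheep chromosome 18 (Oar v4.0). There were 69 such entries of 636 in all, and the rule used position only, no count. The listed loci ran over 194.5 kb, chr18:64369140-64563658, with 67 entries on the plus strand and 2 on the minus strand. Of the 102 entries with a sheep (oar-) name, 53 (52.0%) lay in the cluster, and the other 16 members carried human (hsa-), mouse (mmu-) or rat (rno-) names only.

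Small RNA was sequenced from 3 libraries, each made from RNA pooled over Coopworth ewes. Cont was a pool of 4 normal control sheep that were not paced. HF was a pool of 6 sheep with heart failure from rapid left ventricular pacing, labelled as 220 bpm for 13 days in one field and as 225 bpm for 14 days in another. HF-R was a pool of 4 sheep after pacing had stopped, sampled 26 days later by one label and 14 days later by another. The study describes its sheep as instrumented through a thoracotomy under general anesthesia, with a pacing electrode implanted for HF and HF-R. With 1 pooled library per group there was no replicate error, so no test between groups was possible and every ratio compares libraries. Levels are given as counts and as CPM, the counts scaled to 1000000 over all distinct entries of a library. Where 3 levels stand side by side they are those of Cont, HF and HF-R, in that order. Ratios carry a 95% Clopper-Pearson interval, which covers counting error only, since reads amplified by PCR are not independent molecules. An entry was called higher or lower where its CPM ratio was at least 1.5 or at most the inverse of 1.5 and the interval excluded 1.

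DLK1-DIO3 is an imprinted region: the protein-coding genes DLK1, RTL1 and DIO3 are expressed from the chromosome inherited from the father, and the long noncoding RNAs and the miRNAs from that inherited from the mother. The miRNAs come from long noncoding transcripts that begin at GTL2, also called MEG3, and are cut from hairpins as a 5p and a 3p arm. The seed, bases 2 to 8 of the mature strand, sets most of target recognition. In sheep the region is known for callipyge, a muscular overgrowth with parent-of-origin inheritance, and in mammals the miRNAs are best known from embryo, placenta, brain and muscle.

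In the RefSeq annotation of another assembly (GCF_016772045.2, used for names and order only) DLK1, GTL2, RTL1 and DIO3 lie in that order, and 55 miRNA genes lie between DLK1 and DIO3. Of these, 41 had an entry among the members and 14 had none, among them miR-431, miR-154A, miR-377, miR-487A, miR-496, miR-654 and miR-668. Loci fell into 3 blocks. The first, from miR-493 to miR-136, holds 14 entries around RTL1, with miR-433, miR-127, miR-432 and miR-136 antisense to it in mammals. The second holds the 2 arms of miR-370, and the third, from miR-3955 to miR-656, holds 53 entries.

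The sequences of the most abundant members and of those with the clearest differences between libraries are shown first, as listed in the deposited tables, with the seed in capitals.
oar-miR-379-5p: tGGTAGACtatggaacgtaggc
oar-miR-411a-5p: aTAGTAGAccgtatagcgtacg
oar-miR-127: aTCGGATCcgtctgagcttggct
oar-miR-409-3p: cGAATGTTgctcggtgaacccct
hsa-/mmu-/rno-/oar-miR-543-3p: aAACATTCgcggtgcacttctt
oar-miR-370-3p: gCCTGCTGgggtggaacctggtct
hsa-/rno-/oar-miR-493-5p: tTGTACATggtaggctttcatt
oar-miR-3958-3p: aGATATTGcacggttgatctct
hsa-/mmu-/rno-/oar-miR-433-3p: aTCATGATgggctcctcggtgt
rno-/oar-miR-494-3p: tGAAACATacacgggaaacctct
All 10 seeds differ, so no pair of these abundant or changed members shares its seed.

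Library totals over the distinct entries were 4711131, 6154795 and 5990078 counts. A count of 0 allows up to 0.637, 0.487 and 0.501 CPM in the 3 libraries. Heart muscle miRNAs (miR-1, miR-133, miR-208 and miR-499) made up 33.0%, 33.3% and 39.7% of counts, the defining miRNAs of the labelled tissue. Blood miRNAs summed to 4334, 4190 and 3541 CPM, and liver miR-122 had 3, 36 and 3 counts. Endothelial miR-126 had no entry. The neuronal pair, miR-124 and miR-9, summed to 87.7, 93.7 and 44.1 CPM, and miR-124 itself had 2, 10 and 1 counts.

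The cluster was a small fraction of the miRNA counts. Its members summed to 16204, 18703 and 18019 counts, which is 3440, 3039 and 3008 CPM, or 0.344%, 0.304% and 0.301% of the library. All 3 shares lie close together, with the Cont share (0.339% to 0.349%) above the intervals of HF (0.300% to 0.308%) and HF-R (0.296% to 0.305%). Among the 69 members, 54 had a count in all 3 libraries, 50 had an authors' mean of at least 10 counts and 22 a mean of at least 100. The members just inside and just outside the minimum had means of 10.3 and 6 counts. The 19 members under it held 83 counts together, 0.157% of the cluster, and are not compared between libraries.

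A pair of neighbouring 5p arms made up about as many counts as all other members together. miR-379-5p (chr18:64521291-64521312) had 4605, 6299 and 5131 counts, which is 977, 1023 and 857 CPM. miR-411a-5p (chr18:64522557-64522578) had 3169, 5206 and 3966 counts, which is 673, 846 and 662 CPM. Both were highest in HF by CPM. Together they held 48.0%, 61.5% and 50.5% of the cluster counts. By abundance over all 621 distinct entries they ranked 49 and 55, and the next member, oar-miR-127, ranked 92.

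**Figure D1:**
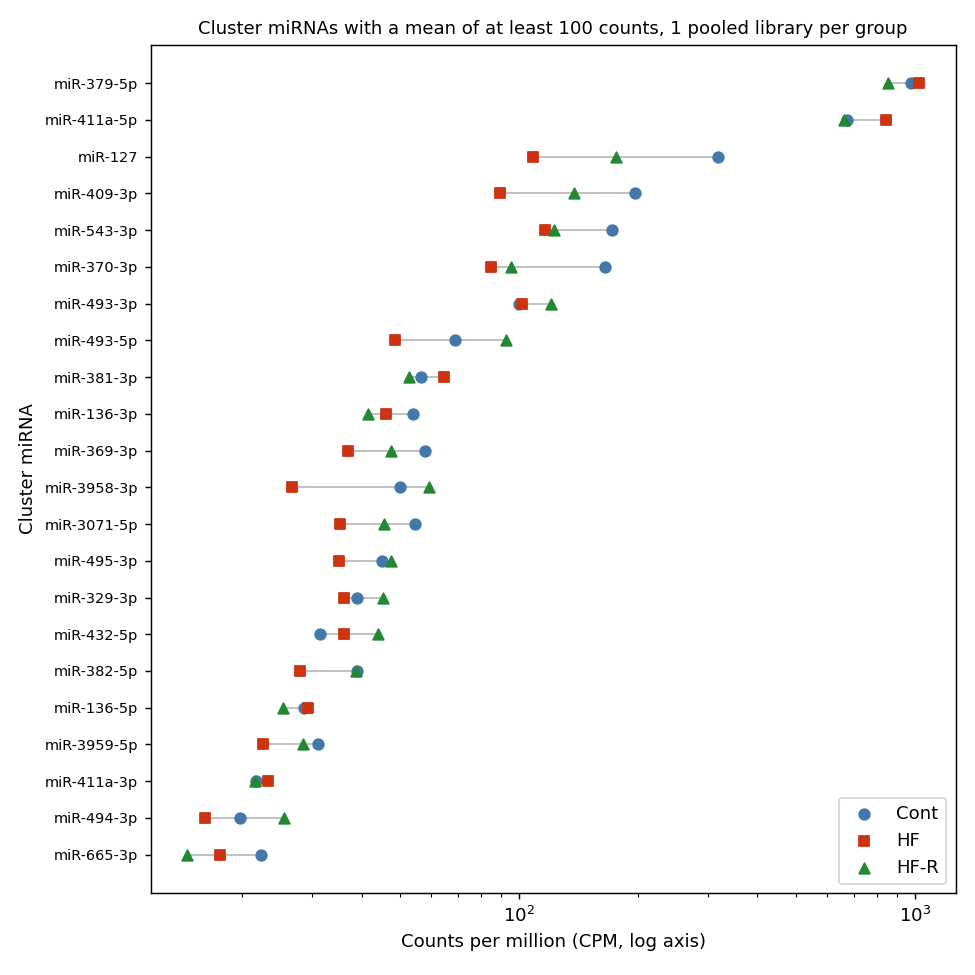
CPM on a log axis of the 22 cluster miRNAs with a mean of at least 100 counts, ordered by mean, with 1 point for each pooled library (circle Cont, square HF, triangle HF-R) and no error bar because there is 1 library per group. miR-379-5p and miR-411a-5p stand apart at 662 to 1023 CPM, and for miR-127, miR-409-3p and miR-370-3p the HF square lies lowest.

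On the CPM scale, cluster members were mostly lower in HF than in Cont while entries elsewhere were mostly higher. Of the 50 members with enough counts, 11 were called lower and 0 higher, where 7.87% of all 356 entries tested were called lower and 22.8% higher. The median CPM ratio was 0.742 (log2 -0.43) over the members and 1.204 over the 306 other distinct entries. Within the table of sheep names alone the other entries had a median of 1.11. By the authors' match remark, 6 of the 34 members of 100% match and 5 of the 16 of 70 to 99% match were called lower. Their median ratios were 0.760 and 0.723, and their ratios of summed CPM 0.973 and 0.526. Without miR-379-5p and miR-411a-5p the sum of the 100% matches had a ratio of 0.733. By CPM, counting error alone left 17 members with an interval wholly below 1 and 2 (miR-379-5p and miR-411a-5p) wholly above it.

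Among the abundant members the largest difference was in miR-127 (oar-miR-127, chr18:64385352-64385374), which in mouse is antisense to Rtl1 and directs cleavage of its transcript. It had 1500, 668 and 1053 counts, or 318, 109 and 176 CPM, lowest in HF. Its HF/Cont ratio was 0.341 (0.311 to 0.374). miR-409-3p had 922, 551 and 826 counts and a ratio of 0.457 (0.411 to 0.509), and its 5p arm had 39, 28 and 61 counts and a ratio of 0.55 (0.326 to 0.916). Both arms of that hairpin were called lower in HF. miR-370-3p, the member of the middle block, had 776, 523 and 573 counts and a ratio of 0.516 (0.461 to 0.577), and HF and HF-R lay close together. miR-433-3p, which promotes fibroblast activation in rodent hearts, had 81, 56 and 109 counts and a ratio of 0.529 (0.37 to 0.753). By the match remark miR-127 and miR-370-3p are entries of 70 to 99% matches, and both arms of miR-409 and miR-433-3p of 100%.

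The remaining members called lower in HF were less abundant or nearer to the threshold. miR-3958-3p had 235, 164 and 354 counts and a ratio of 0.534 (0.435 to 0.655). miR-369-3p had 273, 227 and 285 counts and a ratio of 0.636 (0.531 to 0.762). miR-485-3p had 45, 30 and 37 counts and a ratio of 0.51. In each of these the HF library was the lowest. miR-323a-3p had the fewest counts of those called, 22, 13 and 17, with a ratio of 0.452 (0.209 to 0.938). miR-323c had 101, 87 and 103 counts and lay just inside the threshold at 0.659, beside mmu-miR-3071-5p at 0.646, a locus that shares its reads with miR-136-3p. Just outside it was miR-543-3p with 808, 714 and 733 counts and a ratio of 0.676 (0.611 to 0.749), the fifth most abundant member.

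Other members were not called. miR-410-3p, which with miR-495 drives cardiomyocyte proliferation in rodents, had 10, 20 and 17 counts and the highest ratio of the members, 1.53, with an interval from 0.684 to 3.66 that holds 1. miR-495-3p had 212, 216 and 284 counts and a ratio of 0.78 (0.642 to 0.947), below 1 by counting error but short of the threshold, which it passed with TMM scaling at 0.611. miR-3959-3p had 6, 10 and 15 counts and a ratio of 1.28 (0.42 to 4.27). For the low members the interval is too wide to tell a difference of 1.5-fold from none. miR-541-5p, with 11, 5 and 23 counts, had the second lowest ratio, 0.348, but its interval (0.0948 to 1.09) also holds 1. In all, 6 members were past 1.5-fold without being called.

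Because miR-379-5p and miR-411a-5p lay above 1 by CPM, the cluster sum hid the shift of the other members. The ratio of summed CPM in HF against Cont was 0.883 (0.865 to 0.902). Without that pair it was 0.654 (0.633 to 0.675), and for the pair alone 1.13 (1.10 to 1.17). The side of 1 on which the pair lay depends on the scale. Their log2 ratios by CPM were 0.07 for miR-379-5p and 0.33 for miR-411a-5p. TMM lowers every such ratio by 0.35, which leaves neither above 1. DESeq2 size factors lower it by 0.22, which leaves only miR-411a-5p above 1.

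The scale and the class of reads counted both move these ratios. TMM scaling lowers every log2 ratio of HF to Cont by a further 0.35, giving 27 members called lower and 0 higher with a median of -0.78. With TMM 15.4% of the 306 other entries were called lower and 13.7% higher. Their median was -0.08, so with this scaling the other entries were no longer mostly higher. The gap between the medians of the members and of the other entries was -0.70, which no such scaling can change, since each shifts all ratios alike. On raw counts 2 members were called lower and 1 higher, where 1.31% of the 306 other entries were called lower and 51.6% higher. Across the tables deposited for each library, which list only human, mouse and rat names, the median HF/Cont ratio was 1.22 over counts of perfectly matching reads and 1.03 over counts of 70 to 99% matches. The sheep entries appear in none of those tables, and the study's supplementary lists give other counts for most of them, so which reads stand behind the deposited sheep counts could not be settled, and every value here holds for the deposited counts.

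**Figure D2:**
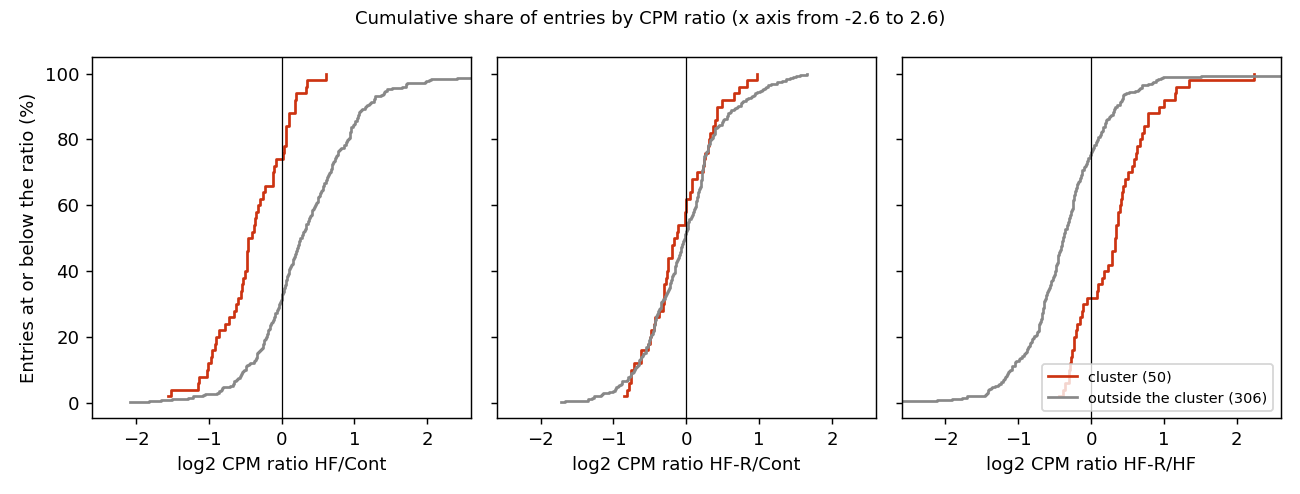
Cumulative percentage of entries (y axis) at or below each log2 CPM ratio (x axis) for HF/Cont, HF-R/Cont and HF-R/HF, over the 50 cluster entries (red) and the 306 other distinct entries (grey) with an authors' mean of at least 10 counts, 1 library per group. The cluster curve lies left of the grey curve in HF/Cont (medians -0.43 and 0.27), near it in HF-R/Cont (-0.15 and -0.02) and right of it in HF-R/HF (0.34 and -0.38).

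In HF-R against HF the cluster members were mostly higher. This comparison shares the HF library with the one above, so the values are given side by side and are not independent of it. Of the 50 members, 10 were called higher and 0 lower, where 5.06% of the 356 entries tested were called higher and 23.3% lower. The median ratio was 1.26 over the members, 0.769 over the other distinct entries and 0.851 over the other sheep entries. With TMM scaling 24 members were called higher and 0 lower, where 11.1% of the 306 other entries were called higher and 10.8% lower.

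miR-493-5p, the first member in position, had 324, 299 and 554 counts, and its HF-R/HF ratio was 1.90 (1.65 to 2.20). miR-3958-3p reached 2.22 (1.84 to 2.69) and miR-433-3p 2.00 (1.44 to 2.81). miR-409-5p stood at 2.24 (1.41 to 3.64) and miR-409-3p, just inside the threshold, at 1.54 (1.38 to 1.72). In these 5 members HF was the lowest library. miR-127 stood at 1.62 (1.47 to 1.79) and was still lower in HF-R than in Cont. miR-494-3p had 93, 99 and 153 counts, or 19.7, 16.1 and 25.5 CPM, lowest in HF. Its HF/Cont ratio was 0.815 (0.608 to 1.09) and its HF-R/Cont ratio 1.29 (0.993 to 1.69). Only its HF-R/HF ratio, 1.59 (1.23 to 2.07), was called. The study followed this miRNA by qPCR and found it up-regulated in HF, while its array gave it as lower in HF. By CPM the pooled counts settle neither direction, since the HF/Cont interval holds 1. TMM lowers every log2 HF/Cont ratio by 0.35 and DESeq2 size factors by 0.22, and either takes this interval wholly below 1. The reading of this member thus depends on the scale.

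The largest HF-R/HF ratios were those of a pair of low members. miR-541-5p had 4.73 (1.76 to 15.9) from 5 and 23 counts. miR-380-3p had 2.53 (1.29 to 5.25) from 13 and 32. miR-382-3p had 50, 70 and 113 counts and a ratio of 1.66 (1.22 to 2.27), highest in HF-R. The lowest ratios were 0.74 for rno-miR-127-5p, with 25, 25 and 18 counts, 0.767 for miR-154b-5p, with 48, 71 and 53 counts, and 0.783 (0.751 to 0.816) for miR-411a-5p. None of those reached the threshold. The sum over all members had a ratio of 0.99 (0.97 to 1.01), and 1.27 (1.23 to 1.31) without miR-379-5p and miR-411a-5p.

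In HF-R against Cont the medians of the cluster and of the other entries lay closer together than in the other comparisons, with a gap of -0.13 in log2 (cluster minus others). Of the 50 members, 1 was called higher and 4 lower, where 4.78% of the 356 entries tested were called higher and 11.2% lower. The median ratio was 0.901 over the members, 0.983 over the other distinct entries and 1.07 over the other sheep entries. For 35 of the 50 members the interval held 1. The ratio of summed CPM was 0.875 (0.856 to 0.893), and 0.832 (0.808 to 0.858) without miR-379-5p and miR-411a-5p, so the cluster sum was lower in HF-R than in Cont.

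miR-382-3p was the member called higher, with 1.78 (1.26 to 2.53). miR-127 was called lower at 0.552 (0.51 to 0.598) and miR-370-3p at 0.581 (0.52 to 0.648). Both were below Cont in HF and in HF-R. miR-485-5p, with 107, 97 and 80 counts, stood at 0.588 (0.435 to 0.793), and miR-665-3p, with 105, 108 and 87 counts, just inside the threshold at 0.652 (0.485 to 0.874). Of those called lower, miR-127, miR-370-3p and miR-665-3p are entries of 70 to 99% matches and miR-485-5p of 100%. The HF-R/Cont ratio of summed CPM was 0.652 over all members of 70 to 99% match and 0.930 over those of 100%. A further 7 members were past 1.5-fold with intervals that hold 1, among them miR-3959-3p at 1.97, miR-541-5p at 1.64 and rno-miR-127-5p at 0.566. miR-432-5p, with 148, 222 and 264 counts, was lowest in Cont, with a ratio of 1.40 (1.14 to 1.73) under the threshold. On raw counts, which carry the difference in library totals, the split turned, with 7 members (14%) called higher and 0 lower. The other entries turned as well, with 20.9% of the 306 called higher and 2.94% lower.

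Taking the 3 levels together, HF was the lowest library in 29 of the 50 members (58.0%) and in 42 of the 306 other entries (13.7%). HF was the highest in 8 members (16.0%) and in 178 others (58.2%). These orders are those of CPM and depend on the scale. The median log2 HF/Cont ratio of the others was 0.27 by CPM, -0.08 with TMM and 0.04 with DESeq2 size factors. The list for fibroblasts and smooth muscle (miR-143, miR-145, miR-199 and miR-214) was also lowest in HF, at 103378, 85264 and 90901 CPM, carried by miR-143, while miR-145, miR-199 and miR-214 were each higher in HF than in Cont. The blood list was nearly level between Cont and HF through miR-486, at 3684, 3726 and 3102 CPM. Of the other blood miRNAs, miR-150, miR-451, miR-142 and miR-144 were lower in HF than in Cont. miR-150 stood at 226, 128 and 168 CPM and miR-451 at 139, 106 and 70.3. miR-142 stood at 187, 145 and 142 CPM and miR-144 at 97.9, 82.5 and 57.8. Of these 4, miR-150 was lowest in HF and the others in HF-R. miR-223, with 3, 8 and 5 counts, was higher in HF than in Cont. In pooled tissue fewer cells of a type and less RNA per cell cannot be told apart, and the part of these cell types in the cluster ratios was not tested.

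**Figure D3:**
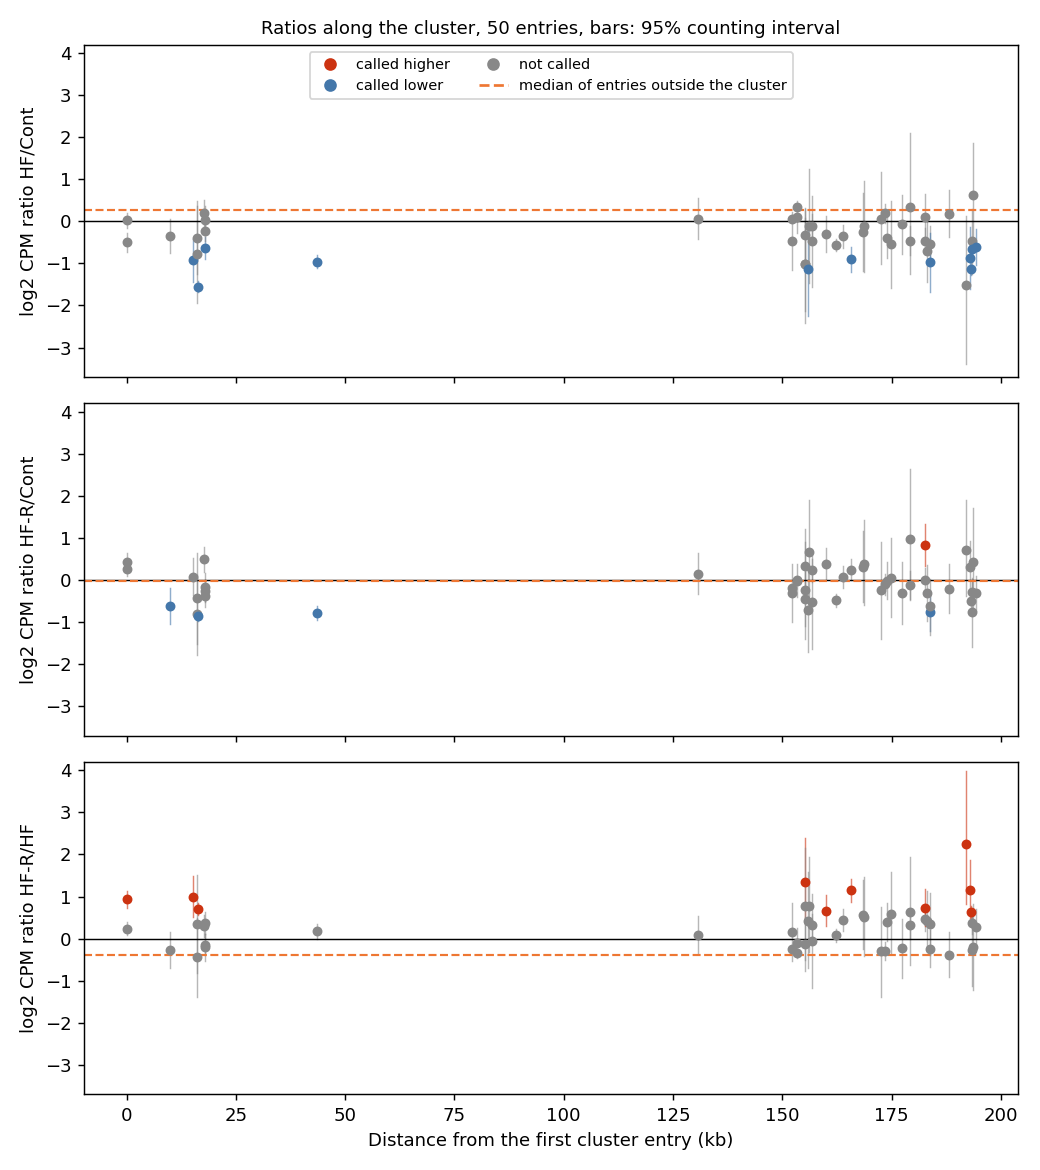
Log2 CPM ratio (y axis) of the 50 cluster entries by distance in kb from the first cluster entry (x axis), in 3 panels, 1 per comparison (HF/Cont, HF-R/Cont, HF-R/HF), with 95% counting intervals as bars and the median of the 306 entries outside the cluster as a dashed line. Entries called lower in HF/Cont (11, blue) and higher in HF-R/HF (10, red) lie at both ends of the cluster.

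Members lower in HF were spread along the cluster. In the first block 3 of 11 members were called lower in HF against Cont, with a median ratio of 0.765, and 3 were called higher in HF-R against HF. Those called lower include mmu-miR-3071-5p, whose listed reads are also those of miR-136-3p. The 11 also include hsa-/mmu-miR-127-5p and rno-miR-127-5p, names of the same arm, so not all are separate molecules. The middle block held miR-370-3p alone above the minimum. In the third block 7 of 38 were called lower, with a median of 0.742, and 7 were called higher in HF-R against HF. Summed CPM differed more between blocks than the medians, because miR-379-5p and miR-411a-5p lie in the third: the HF/Cont ratio of the sum was 0.623 (0.592 to 0.656) in the first block and 0.978 (0.955 to 1.00) in the third. Close neighbours could differ, as miR-127 and miR-432-5p show, which lie 16.2 and 17.7 kb from the first entry and had HF/Cont ratios of 0.341 and 1.15.

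Arms could be compared in 12 hairpins with both arms at the minimum, of which 5 had the 5p arm as the major one and 7 the 3p arm. The balance ranged from near equal to almost one-sided. In miR-493 the 3p arm, with 472, 627 and 720 counts, was listed more often than the 5p arm, and in miR-379 the 3p arm had 38, 36 and 39 counts against 4605, 6299 and 5131 for the 5p arm. In miR-136 the 5p arm (135, 180 and 152 counts) made up 34.7%, 38.9% and 37.9% of the hairpin. Which arm was the major one was the same in all 3 libraries for every one of the 12 hairpins.

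The intervals of the 5p share mostly overlapped between libraries, which does not show that the shares were alike. Of the 36 pairs of libraries compared, 3 had intervals that did not overlap. The 5p arm of miR-493 made up 40.7% (37.3% to 44.2%), 32.3% (29.3% to 35.4%) and 43.5% (40.7% to 46.3%), lowest in HF. In miR-382 the 5p arm (183, 172 and 232 counts) made up 78.5% (72.7% to 83.6%), 71.1% (64.9% to 76.7%) and 67.2% (62.0% to 72.2%), so Cont and HF-R did not overlap. The 5p share of miR-409 was 4.06%, 4.84% and 6.88%, with intervals that overlap. Its HF-R/Cont ratios, 1.23 (0.81 to 1.89) for 5p and 0.705 (0.641 to 0.775) for 3p, had intervals that did not. The same was true of the HF/Cont ratios of miR-127, 0.765 (0.422 to 1.39) for rno-miR-127-5p and 0.341 (0.311 to 0.374) for oar-miR-127.

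Most of the other hairpins were one-sided. The 5p arm held 96.9%, 97.3% and 96.8% of miR-411a, whose 3p arm had 102, 143 and 129 counts. It held 96.1%, 93.3% and 91.9% of miR-3959, whose 5p arm had 146, 139 and 170 counts, and 70.4%, 76.4% and 68.4% of miR-485. These 3 hairpins favoured the 5p arm in every library. By contrast the 5p arm held 10.5%, 11.7% and 7.77% of miR-369 (5p counts 32, 30 and 24), and 24.1%, 16.4% and 26.8% of miR-411b (5p counts 14, 9 and 15, 3p counts 44, 46 and 41). In miR-127 the rat-named 5p entry, with 25, 25 and 18 counts of perfect matches, held 1.64%, 3.61% and 1.68%, but its 3p partner is an entry of 70 to 99% matches. The same 5p name had a further 72, 99 and 80 counts among the 70 to 99% matches of each library, which are not in that share and are more than those that are. The arms of miR-379, miR-411b, miR-329 and miR-3959 also carry different match remarks, so in these 5 hairpins the share sets unlike classes of reads against each other. In miR-329 the 5p arm, with 17, 16 and 15 counts, held 8.50%, 6.72% and 5.23%. The median HF/Cont ratio was 0.72 over the 20 members named 5p and above the minimum, with 2 called lower, and 0.794 over the 28 named 3p, with 7 called lower. The sums went apart, at 1.07 (1.04 to 1.10) for 5p and 0.702 (0.675 to 0.73) for 3p, because miR-379-5p and miR-411a-5p are 5p arms.

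**Figure D4:**
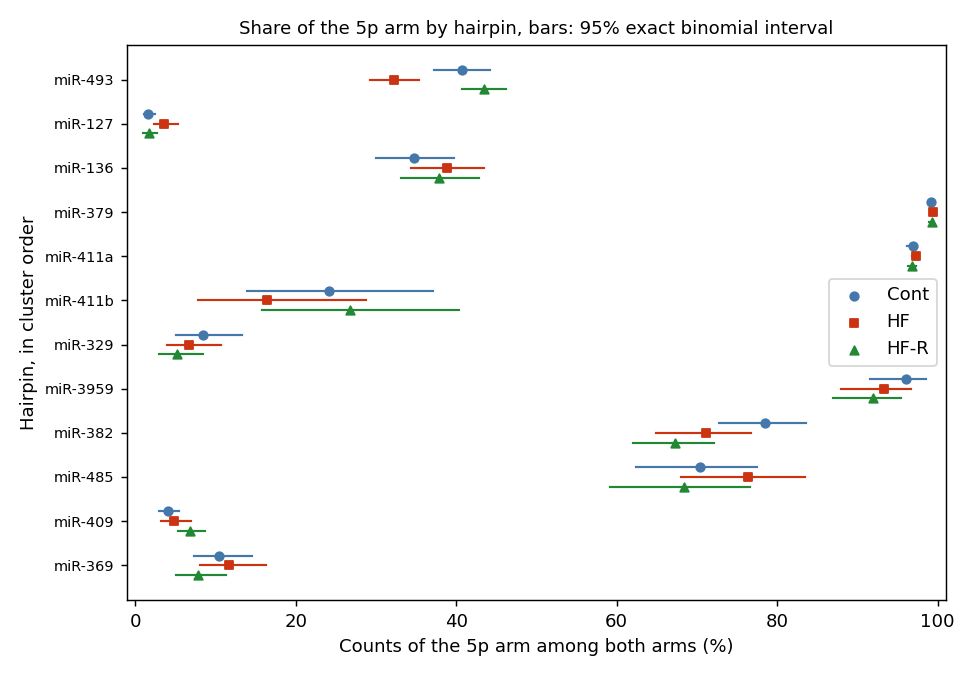
Share of the 5p arm among the counts of both arms (x axis, %) in 12 hairpins in cluster order (y axis), with 95% exact binomial intervals as bars and 1 point for each pooled library (circle Cont, square HF, triangle HF-R). For miR-493 the HF share (32.3%) lies below the intervals of Cont and HF-R, and for miR-382 the HF-R share (67.2%) lies below that of Cont (78.5%). In miR-127, miR-379, miR-411b, miR-329 and miR-3959 the arms differ in match class.

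By seed, the 69 members fell into 58 groups, 9 of which held more than 1 member (20 members in all). The miR-376 family is the clearest case, shown here with the seed in capitals because its members differ by few bases.
oar-miR-376b-3p: aTCATAGAggaaaatccatgt
hsa-/oar-miR-376a-3p: aTCATAGAggaaaatccacgt
oar-miR-376d: aTCATAGAggaaaatccacat
hsa-/oar-miR-376c-3p: aACATAGAggaaattccacgt
oar-miR-376e-3p: aACATAGAggaaaatccacatt
The seed TCATAGA, of miR-376a, miR-376b and miR-376d, had 2, 1 and 4 counts in all, at the limit of detection. The seed ACATAGA, of miR-376c and miR-376e, had 36, 41 and 58 counts, with an HF/Cont ratio of 0.872 (0.543 to 1.40). Reads of members this alike can be split between them by the counting, so single values within the family are uncertain.

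A second likeness was in the 3p arms near the start of the third block. The letters GGTCCAC occurred on the listed strand of 5 members and of 0 of the 552 other distinct entries, and their reverse complement in 0 members and 1 other. The string was chosen after the sequences had been compared and is a description of these letters only. It is in capitals below, and it overlaps the shorter string TCCAC, present in 11 members (15.9%) and 5 others (0.906%).
hsa-/mmu-/oar-miR-379-3p: tatgtaacatGGTCCACtaact
oar-miR-411a-3p: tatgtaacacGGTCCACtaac
oar-miR-380-3p: tatgtaatgtGGTCCACgtct
oar-miR-411b-3p: tatgtcacatGGTCCACtaat
oar-miR-758-3p: tttgtgacctGGTCCACtaa
None of these 5 arms was called in HF against Cont. miR-379-3p and miR-411a-3p, which share the seed ATGTAAC, had 140, 179 and 168 counts together and an HF/Cont ratio of 0.979 (0.78 to 1.23). miR-380-3p stood at 0.498 (0.227 to 1.05), an interval that overlaps the former and holds 1. miR-758-3p had 10, 12 and 20 counts. GC content was 42.9% at the median of the members and 45.5% of the others, and 47.8% of the members began with A against 31.2% of the others.

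For 6 of the 38 sheep entries that share their place with a human name, the listed 5′ end was 1 nt away from that of the human entry, which moves the seed. Those entries held 35.7% of the cluster counts. The pairs are shown for miR-127, miR-411 and miR-409, where the shift touches abundant members.
oar-miR-127: aTCGGATCcgtctgagcttggct
hsa-miR-127-3p: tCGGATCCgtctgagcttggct
oar-miR-411a-5p: aTAGTAGAccgtatagcgtacg
hsa-miR-411-5p: tAGTAGACcgtatagcgtacg
oar-miR-409-3p: cGAATGTTgctcggtgaacccct
hsa-miR-409-3p: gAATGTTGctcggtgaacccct
The same held for miR-381-3p, with 267, 398 and 315 counts and an HF/Cont ratio of 1.14 (0.975 to 1.34), highest in HF. Its listed sheep seed, TATACAA, was the only one of the 58 that also occurred outside the cluster, in 3p arms of let-7 and miR-98. In the tables of each library the human names of these loci carried few counts or none, so which 5′ end the reads had could not be read from them.

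Some members cannot be read as separate molecules. miR-329-3p, with 183, 222 and 272 counts, had exactly the counts of miR-374a-5p, which is listed on another chromosome, and which of them the counts belong to could not be settled. It was called in none of the 3 comparisons.

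mmu-miR-3071-5p lies on the minus strand opposite miR-136-3p, and 20 bases of both loci overlap. The sequences are shown because the listed reads could be compared with both strands.
mmu-miR-3071-5p: actcatttgagacgatgatgga
reverse complement of mmu-miR-3071-5p: tccatcatcgtctcaaatgagt
hsa-miR-136-3p: catcatcgtctcaaatgagtct
All 155 distinct reads listed for mmu-miR-3071-5p matched its reverse complement better than its own sequence. In each library 100% of its listed reads (78, 62 and 76) were also listed for miR-136-3p. Its counts of 257, 217 and 273 lay close to the 70 to 99% matches of miR-136-3p, which were 262, 225 and 277, so the member called lower in HF under this name is made of reads that are also those of miR-136-3p. The perfect and the 70 to 99% matches of miR-136-3p differed. The perfect matches, 254, 283 and 249 counts, had an HF/Cont ratio of 0.853 (0.717 to 1.01) and an HF-R/HF ratio of 0.904 (0.759 to 1.08). The 70 to 99% matches had ratios of 0.657 (0.548 to 0.789) and 1.26 (1.06 to 1.52). For the same arm, then, HF was the lowest library by one class of reads and between the others by the other class.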

How the data were processed

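Small RNA from left ventricular tissue was sequenced in 3 libraries, 1 per group, each from pooled RNA. The authors aligned reads to miRBase with Blast and mapped them to the sheep genome (Oar v4.0) with Bowtie, and deposited whole-number counts per miRNA, with a mean signal over the libraries that is the authors' mean. Entries carry a remark of 100% or 70 to 99% match, which the study defined as read length over miRNA length. Blank counts were read as 0, and the authors' mean leaves them out. Of 636 entries, 15 that repeat the counts of an overlapping locus were taken once. CPM used the total of the 621 distinct entries.

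Ratios and Clopper-Pearson intervals were computed with scipy 1.17.1 and numpy 2.4.6 in Python 3.11.15, and the script was tested on simulated data. Comparisons used entries with an authors' mean of at least 10 counts. Alternatives were edgeR 4.0.16 TMM factors, DESeq2 1.42.0 size factors, other totals, filters, thresholds and match classes. Members named are those with a mean of at least 100 counts, the 3 highest and 3 lowest ratios of each comparison, both arms of a hairpin at the minimum, miR-494-3p, and entries whose counts equal those of another locus; others called or used as examples were chosen after their values were seen. The members and lists were chosen with earlier results of these data known.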

Additional observations from a re-analysis of the deposited data

Results flagged for a closer look

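In the tables of each library, 3 names of the cluster had counts but no entry in the tables compared above: hsa-miR-432-3p, rno-miR-493-3p and rno-miR-496-5p. Of these, rno-miR-496-5p had 5 counts in HF among the 70 to 99% matches, above the 3 counts that a count of 0 allows, beside 1 count for Cont and 2 for HF-R. All 8 reads listed for it matched its reverse complement better than the listed sequence.

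The 70 to 99% matches of hsa-miR-127-5p were not used in the ratios by position and arm above. They are nearly the same counts as those given above for the rat name at this locus (72, 99 and 80). They numbered 71, 98 and 80, against 17, 13 and 16 perfect matches. The HF/Cont ratio was 1.06 (0.771 to 1.45) by the former and 0.585 (0.261 to 1.28) by the latter. For hsa-miR-136-3p the 70 to 99% matches, already set beside mmu-miR-3071-5p above, numbered 262, 225 and 277. These values are given without an explanation.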

How the results depend on the processing

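No paired analysis was possible because each group is 1 library, and leaving a library out was not possible either. The share of the most abundant member was not run on the tables of each library, which hold no sheep names. Depth limits the low members: 6 members in HF/Cont, 7 in HF-R/Cont and 4 in HF-R/HF were past 1.5-fold with intervals that hold 1.

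Against 11 members called in HF/Cont, TMM gave 27, DESeq2 size factors 20, raw counts 3, a minimum of 100 counts 6, perfect matches 6, a threshold of 1.2-fold 18 and of 2-fold 3, and the tables of each library 0 (perfect, 3 members tested) and 3 (70 to 99%, 5 tested). Against 5 in HF-R/Cont, the total of perfect hsa-, mmu- and rno-matches gave 10, a minimum of 100 counts 3, perfect matches 2, 1.2-fold 11, 2-fold 0 and the tables of each library 0 and 0. Against 10 in HF-R/HF, TMM gave 24, DESeq2 18, a minimum of 100 counts 5, 1.2-fold 18, 2-fold 4 and the tables of each library 0 and 0. In the tables of each library the members tested were names at the miR-136-3p and miR-127-5p loci alone. The 3 called over 70 to 99% matches were hsa-/rno-miR-136-3p, mmu-miR-136-3p and mmu-miR-3071-5p. Their loci overlap and their counts were nearly the same (262, 260 and 257 in Cont), so they are not separate members. The names of miR-127-5p, with 71, 98 and 80 counts for hsa-miR-127-5p, were not called. The background moves with the scale too. DESeq2 size factors called 10.8% of the 306 other entries lower and 17.0% higher in HF/Cont. In HF-R/HF they called 8.50% of them higher and 13.4% lower.

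The median log2 ratio in HF/Cont was -0.78 with TMM, -0.66 with DESeq2, -0.045 on raw counts and -0.61 over the 70 to 99% tables. In HF-R/Cont it was -0.43 over the perfect tables, -0.30 with the total of perfect matches and 0.20 on raw counts. In HF-R/HF it was 0.69 with TMM, 0.62 with DESeq2 and 0.48 without miR-1 in the total, and it turned to -0.15 over the 3 members of the perfect tables. By arm, raw counts turned the 5p median of HF-R/Cont to 0.15 and the 3p median of HF/Cont to 0.052, and the 1 member in the perfect tables turned the 3p median of HF-R/HF to -0.15. Raw counts carry the difference in library totals. The medians over the tables of each library rest on names at the miR-136-3p and miR-127-5p loci alone, which share reads, so they do not stand for the cluster.

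The ratio of summed CPM in HF/Cont turned to 1.15 on raw counts, and was 0.693 with TMM, 0.756 with DESeq2, 0.84 and 0.716 over the perfect and 70 to 99% tables, 0.973 over perfect matches, 0.819 without miR-379-5p and 0.654 without miR-411a-5p as well. In HF-R/Cont it turned to 1.11 on raw counts, and was 0.91 with DESeq2, 0.954 without miR-1 in the total, 0.786 with the total of perfect matches, 0.773 and 0.848 over the tables of each library, 0.93 over perfect matches and 0.832 without the pair. In HF-R/HF it was 1.27 with TMM, 1.203 with DESeq2, 1.09 without miR-1 in the total, 0.90 with the total of perfect matches, 0.963 on raw counts, 0.921 and 1.18 over the tables of each library, 0.956 over perfect matches, 1.07 without miR-379-5p and 1.27 without the pair. Leaving out that pair and leaving out miR-329-3p were chosen after seeing the data. Nearly all cluster counts in the tables of each library belong to names at the miR-136-3p and miR-127-5p loci, so the sums over those tables describe these loci. The other 69 alternatives of these 9 results moved no total of calls by over 1.5 times and no median or ratio beyond its interval. Among them, though, raw counts turned the split in HF-R/Cont from 1 higher and 4 lower to 7 higher and 0 lower. Raw counts also called 20.9% of the 306 other entries higher.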
